A study of Homo sapiens with 6 samples.

Results

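The genes examined were 10 mucins, namely MUC1, MUC2, MUC4, MUC5AC, MUC5B, MUC12, MUC13, MUC15, MUC16 and MUC20. They were taken from the count table by gene symbol, and all 10 were found among its 28008 symbols. RNA-seq had been performed on NCI-H660 (H660), a neuroendocrine prostate cancer (NEPC) line, carrying a tetracycline-inducible shRNA against MUC1 from a lentiviral vector under puromycin selection. The DOXneg cells received 0.1% DMSO as vehicle (n = 3), and the DOXpos cells received 500 ng/ml doxycycline (DOX; n = 3), for 7 days. Both groups carried the same hairpin, which was 1 of the MUC1 shRNAs used in the study, so all 6 libraries came from 1 engineered line. DOX-treated cells with a control hairpin were not analysed here, and effects of DOX itself and of the hairpin therefore cannot be told apart. The libraries came from triplicate cultures of 1 line, and the p values measure only the spread between such cultures.

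Mucins are large glycoproteins whose repeat-rich extracellular parts carry dense O-linked sugar chains. MUC2, MUC5AC and MUC5B are secreted and form the gel of mucus. MUC1, MUC4, MUC12, MUC13, MUC15, MUC16 and MUC20 are tied to the membrane and shield the cell surface. MUC1 is cleaved into an extracellular subunit and a transmembrane subunit, MUC1-C, whose cytoplasmic domain binds kinases and transcription regulators and has been linked to NEPC. The shRNA acts on MUC1 mRNA, and the 2 questions were how far MUC1 transcripts fell and whether transcripts of other mucins were present or moved when they did.

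The sequence below encodes the cytoplasmic end of MUC1-C and is shown because it is the part of the target on which the study centres. It comprises the last 72 codons and the stop codon, and 16 of the 26 GENCODE 29 MUC1 transcripts with an annotated stop codon end in exactly these bases. It lies on the minus strand of chromosome 1 (GRCh38) in 2 exons, at chr1:155187225-155187368 and chr1:155186135-155186209. Capitals mark the 3 codons of the CQC motif, through which MUC1-C forms dimers.

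MUC1 end of the coding sequence: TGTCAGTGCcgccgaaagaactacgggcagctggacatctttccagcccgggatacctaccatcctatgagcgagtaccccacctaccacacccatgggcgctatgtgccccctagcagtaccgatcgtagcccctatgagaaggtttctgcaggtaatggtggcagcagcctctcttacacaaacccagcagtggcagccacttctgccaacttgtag

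The 250 bases before the annotated start of MUC1, MUC4 and MUC13 follow, because these were the 3 mucins that passed the test (RefSeq, GRCh38.p14). All 3 genes are on the minus strand. Capitals mark matches on either strand to the letters TATAAA (a core promoter box), GGGCGG (the box bound by SP1), TGANTCA (AP-1 type), TTCNNNGAA (STAT type) and CACGTG (E-box). MUC1 matches of GGGCGG overlap one another, and in MUC4 the GGGCGG match is on the opposite strand and reads as its reverse complement. The windows are chr1:155192916-155193165, chr3:195811930-195812179 and chr3:124934752-124935001.

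MUC1 promoter: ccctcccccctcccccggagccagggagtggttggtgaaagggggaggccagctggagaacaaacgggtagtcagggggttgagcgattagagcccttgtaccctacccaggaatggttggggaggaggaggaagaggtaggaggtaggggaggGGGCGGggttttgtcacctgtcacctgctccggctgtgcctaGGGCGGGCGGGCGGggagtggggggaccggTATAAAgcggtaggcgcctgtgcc
MUC4 promoter: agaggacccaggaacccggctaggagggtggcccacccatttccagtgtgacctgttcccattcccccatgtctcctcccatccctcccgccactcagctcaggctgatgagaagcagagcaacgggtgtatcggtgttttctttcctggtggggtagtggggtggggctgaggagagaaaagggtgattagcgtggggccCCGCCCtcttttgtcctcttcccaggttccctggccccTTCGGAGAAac
MUC13 promoter: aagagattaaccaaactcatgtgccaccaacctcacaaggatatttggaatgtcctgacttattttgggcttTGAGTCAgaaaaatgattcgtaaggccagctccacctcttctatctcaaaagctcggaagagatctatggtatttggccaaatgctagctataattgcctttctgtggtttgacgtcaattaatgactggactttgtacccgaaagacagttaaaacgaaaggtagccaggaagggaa

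The MUC1 window held 1 TATAAA, beginning 24 bases before the start, and 4 GGGCGG matches. TATAAA was found in 10.7% and GGGCGG in 42.6% of the 35116 RefSeq promoter windows of the same length. MUC4 had 1 GGGCGG and 1 TTCNNNGAA match, the latter present in 6.57% of all windows. MUC13 had 1 TGANTCA match, 178 bases before the start, and such a match occurred in 6.57% of windows. None of the 3 windows held CACGTG, which 6.34% of windows did. The MUC13 window had 41.6% G and C, against 66.0% for MUC1, 60.4% for MUC4 and a median of 58.0% over all windows. These matches are letters in a window and not measured binding sites.

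**Figure D1:**
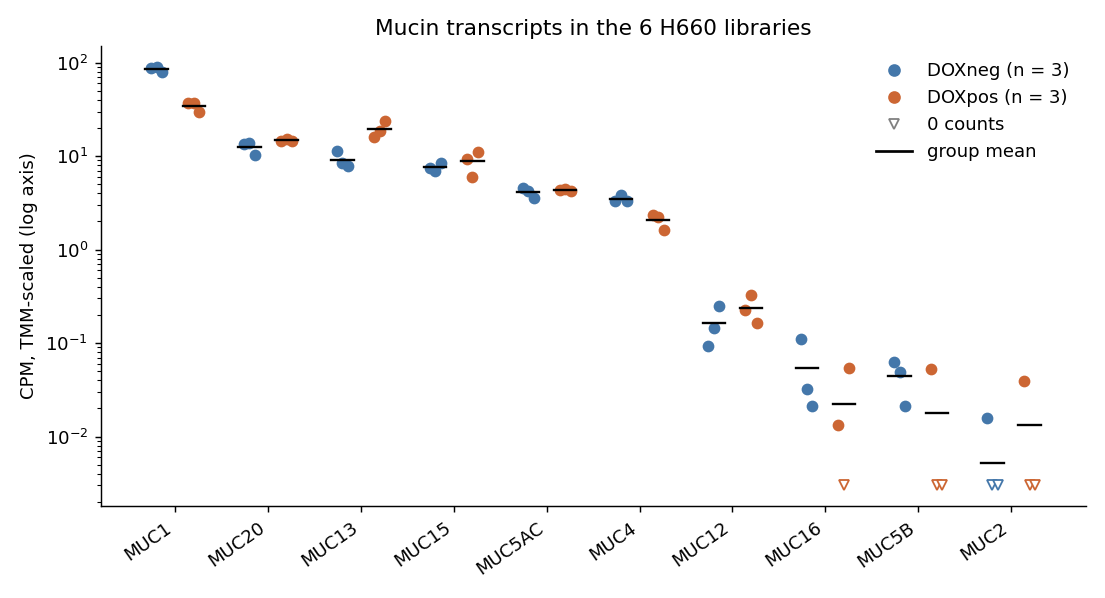
Counts scaled to a common library total with TMM factors (CPM, log axis) of the 10 mucins in each library, with DOXneg in blue, DOXpos in orange, black lines for group means and open triangles for libraries with 0 counts, which have no true place on a log axis. MUC1 and MUC4 sit lower and MUC13 sits higher in all 3 DOXpos libraries, and MUC2, MUC5B and MUC16 sit below 0.11 CPM throughout.

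Total counts ranged from 47620696 to 74061121 per library. The line was checked against marker genes. The neuroendocrine markers were present, with CHGA at 190 to 239 CPM, and so were the epithelial markers EPCAM and KRT8. KLK3, the gene for PSA, had 0 counts in every library, where 3 counts in a library correspond to 0.0397 to 0.0630 CPM. Of the 10 neuroendocrine markers tested, INSM1 and NCAM1 passed the test, both lower with DOX, by 0.45 and 0.50 on the log2 scale (edgeR adjusted p = 0.039 and 0.014). Over all tested genes, 4.87% passed and 1.96% passed as lower. INSM1 and NCAM1 both lost their call without DOXneg replicate 2 or DOXneg replicate 3, and INSM1 also without DOXpos replicate 2 or 3.

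MUC1 was the most abundant of the 10 mucins and fell to 40.2% of its DOXneg level. It is encoded at chr1:155185824-155192915, and 0 other RefSeq genes overlap it. MUC1 levels were 88.2, 90.2 and 79.6 CPM in the DOXneg libraries. After DOX they were 36.7, 37.2 and 29.9 CPM. The groups did not overlap, and DOXpos replicate 3 was the lowest of the 6. The fall was 1.32 on the log2 scale (SE 0.096), with a 95% interval of 34.7% to 46.4% of the DOXneg level and an adjusted p of 0.00017 by edgeR's quasi-likelihood test. Each library held between 2044 and 5636 MUC1 counts, so transcripts of the target remained well above background after silencing. In bulk RNA, fewer MUC1-expressing cells and less MUC1 RNA per cell cannot be told apart.

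Across all genes, 829 of 17026 tested passed the same test (4.87%), with 496 genes rising (2.91%) and 333 falling (1.96%). Of the 10 mucins, 7 had enough counts to be tested and 3 of these passed. MUC1 and MUC4 were lower, and MUC13 was higher. The median log2 difference of the 7 tested mucins was 0.23, beside 0.00034 over all tested genes. MUC2, MUC5B and MUC16 did not pass the count filter and were not tested.

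MUC13 is a transmembrane mucin with EGF-like domains, made mainly in gut epithelium, and its transcripts were 2.11 times as high with DOX. The gene is at chr3:124905442-124934751. MUC13 levels were 11.4, 8.42 and 7.77 CPM in DOXneg and 16.0, 18.4 and 24.0 CPM in DOXpos libraries. The lowest DOXpos library lay above the highest DOXneg library. On the log2 scale MUC13 rose by 1.08 (SE 0.17), a fold of 2.11 with a 95% interval of 1.63 to 2.73 (edgeR adjusted p = 0.0087). The DOXpos library with the highest MUC13, replicate 3, was also the one with the lowest MUC1. Among DOXneg libraries the order went the other way, as replicate 3 had the lowest MUC13 (7.77 CPM) and the lowest MUC1 (79.6 CPM). The call did not hold without DOXneg replicate 3 (adjusted p = 0.071) or DOXpos replicate 2 (adjusted p = 0.059), although the estimates there were 0.97 and 1.12.

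MUC4, a very large membrane mucin that can act as a partner of ERBB2, fell together with MUC1. It is located at chr3:195746771-195811929. MUC4 levels were 3.30, 3.86 and 3.30 CPM in DOXneg and 2.34, 2.25 and 1.63 CPM in DOXpos libraries. All 3 DOXpos libraries were below all 3 DOXneg libraries, on 120 to 239 counts a library. MUC4 fell by 0.75 on the log2 scale (SE 0.16), to 59.3% of its DOXneg level with a 95% interval of 46.5% to 75.7% (edgeR adjusted p = 0.023). It lost its call without DOXneg replicate 2 (adjusted p = 0.12), DOXneg replicate 3 (0.093) or DOXpos replicate 3 (0.058). MUC4 contains long repeats, in which reads could be hard to place; this was not measured.

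MUC20, a membrane mucin known to bind the MET receptor, was at 13.6, 13.8 and 10.4 CPM in DOXneg libraries and at 14.6, 15.2 and 14.5 CPM in DOXpos libraries. The groups did not overlap, as was so for 28.1% of all tested genes (14.8% higher and 13.3% lower with DOX). MUC20 did not pass the test, with a log2 difference of 0.23, a 95% interval of -0.013 to 0.47 and an adjusted p of 0.26 (edgeR). MUC20 has a near-identical pseudogene copy nearby that was not analysed here, so reads could be divided between them.

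MUC15, a small membrane mucin, overlapped between the groups. Its levels were 7.45, 6.90 and 8.44 CPM in DOXneg and 9.38, 6.04 and 11.1 CPM in DOXpos libraries. DOXpos replicate 2 was the lowest of the 6 and DOXpos replicate 3 the highest. The log2 difference was 0.23 with a 95% interval of -0.17 to 0.63 (edgeR adjusted p = 0.52). MUC15 lies inside ANO3, which is on the opposite strand and had 124 to 223 counts a library. The strand setting of the counting was not given in the sources used here, and reads of the pair might not be separable without it.

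Among the gel-forming mucins, MUC5AC was the one with more than a trace of transcript. MUC5AC, the main mucin of airway goblet cells and gastric surface cells, was at 4.51, 4.20 and 3.59 CPM in DOXneg and 4.31, 4.40 and 4.26 CPM in DOXpos libraries. The groups overlapped, and the log2 difference was 0.07 with a 95% interval of -0.20 to 0.34 (edgeR adjusted p = 0.79). Its interval leaves room for a fold between 0.873 and 1.27. MUC5B had 4, 3 and 1 counts in DOXneg and 4, 0 and 0 in DOXpos libraries. MUC2, the mucin of intestinal goblet cells, had 1, 0 and 0 counts and 3, 0 and 0 counts. Both were thus at the limit of detection in either group, and no change could be seen at this depth.

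MUC12 and MUC16, the remaining membrane mucins, were close to undetected. MUC12 had 6, 9 and 12 counts in DOXneg and 17, 18 and 12 in DOXpos libraries. It passed the filter with this low count, and its log2 difference of 0.56 had a 95% interval of -0.39 to 1.51 (edgeR adjusted p = 0.51). MUC16, which is shed as the serum marker CA125, had 7, 2 and 1 counts in DOXneg and 1, 0 and 4 in DOXpos libraries. Summed over the group, MUC16 was at 0.0577 CPM in DOXneg (exact Poisson 95% interval 0.0277 to 0.106) and at 0.0245 CPM in DOXpos (0.00795 to 0.0571), intervals that cover counting error only. A difference in MUC16 was not detectable at this depth.

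**Figure D2:**
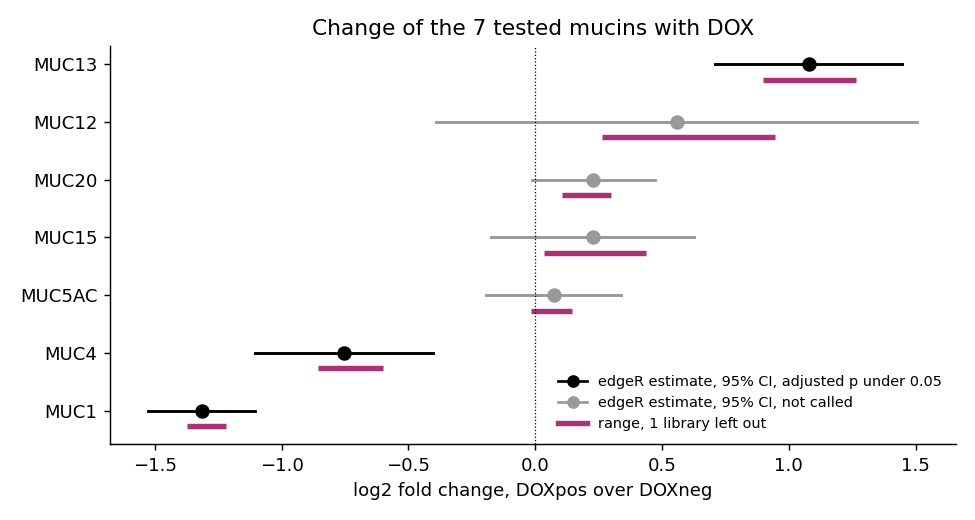
Log2 fold change of the 7 tested mucins (DOXpos over DOXneg), with edgeR estimates and 95% confidence intervals in black where the adjusted p was under 0.05 and in grey otherwise. Magenta bars give the range of the estimate with 1 library left out, which keeps MUC1 between -1.37 and -1.22 and MUC13 between 0.90 and 1.27, and for MUC5AC crosses 0.

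Levels of different mucins can be compared only per length. In TPM, the deposited values scaled by gene length, MUC1 was at 29.1, 31.6 and 21.5 in the DOXneg libraries. MUC13 was at 2.31, 1.80 and 1.29, and MUC15 at 1.26, 1.24 and 1.17. MUC20 was at 0.732, 0.786 and 0.459, MUC5AC was between 0.0923 and 0.142, and MUC4 was between 0.0235 and 0.0356. MUC12, MUC5B, MUC16 and MUC2 were each below 0.01 in every library. Within their library, 95.2% to 95.7% of symbols in the TPM table were at or below MUC1 in DOXneg, and 85.7% to 88.6% in DOXpos. For MUC13 the corresponding range moved from 58.6% to 63.5% in DOXneg to between 68.3% and 74.7% in DOXpos.

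The order of the lower mucins depended on the gene length used. The deposited TPM values implied a length of 2290 bases for MUC1, on a scale set so that the median gene matched its GENCODE 29 exon length. The exons of MUC1, joined over all its annotated transcripts, cover 4717 bases. For MUC4 and MUC20 the implied lengths were 4.07 and 3.30 times the exon length, and for MUC13 1.07 times. Of 14276 genes compared, 72.5% had an implied length within 1.5 times the exon length. With CPM per kb of GENCODE exon, MUC20 (2.96 ± 0.446), MUC13 (2.63 ± 0.557) and MUC15 (2.14 ± 0.220; mean ± SD, n = 3) followed MUC1 (18.2 ± 1.20) in DOXneg. On that scale, the library ranges of MUC20 and MUC13 overlapped, as did those of MUC13 and MUC15. MUC5AC (0.235 ± 0.0267) and MUC4 (0.164 ± 0.0153) came next, without overlap between their libraries. MUC12, at 0.00956, was far below both.

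MUC1 made up most of the summed transcript of the 10 mucins in vehicle-treated cells and less of it after DOX. Its share of the summed TPM of the 10 mucins was 86.7%, 88.7% and 87.6% in DOXneg libraries. After DOX the share was 67.7%, 68.1% and 56.3%. The means were 87.7% ± 1.03 and 64.0% ± 6.74 (SD, n = 3), with no overlap, and p = 0.10 was the smallest that an exact two-sided permutation test of 3 against 3 libraries can give. MUC1 is the hairpin target, so the lower share follows in part from the MUC1 fall given above. Per kb of GENCODE exon the means were 69.2% ± 1.47 and 38.3% ± 5.82, so the size of the share depends on the length, whereas the direction was the same.

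The other 9 mucins together added transcript, most of it MUC13, by less than MUC1 lost. Their summed TPM was 4.48, 4.01 and 3.04 in DOXneg and 6.90, 4.55 and 7.37 in DOXpos libraries. The lowest DOXpos value, 4.55 in replicate 2, was just above the highest DOXneg value (exact two-sided permutation p = 0.10). TPM and CPM differed in scale between libraries. In DOXpos replicates 1 and 2, MUC1 was at 36.7 and 37.2 CPM but at 14.5 and 9.73 TPM. Per kb of GENCODE exon, the CPM sums were 8.98, 8.02 and 7.42 in DOXneg libraries. In DOXpos libraries they were 11.0, 10.9 and 13.7, with a wider gap between the groups. MUC13 alone rose by a mean of 2.03 TPM, so the sum largely restates MUC13. The mean rise of the 9 mucins, 2.43 TPM, equalled 15.0% of the mean MUC1 fall of 16.2 TPM. Per kb of GENCODE exon it equalled 34.4%. MUC13 made up 46.2% ± 4.75 of the TPM of these 9 mucins in DOXneg and 61.4% ± 4.77 in DOXpos libraries (SD, n = 3; exact permutation p = 0.10).

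The gap between MUC1 and MUC13 narrowed after DOX, and how far depended on the length used. The ratio of MUC1 to MUC13 TPM was 12.6, 17.5 and 16.7 in DOXneg libraries and 3.75, 3.29 and 2.03 in DOXpos libraries. Per kb of GENCODE exon, the ratio was 5.73, 7.95 and 7.60 before and 1.70, 1.50 and 0.923 after DOX. On the exon scale MUC13 thus lay above MUC1 in DOXpos replicate 3, which was not the case in TPM. The summed TPM of all 10 mucins was 31.2 ± 5.88 in DOXneg and 17.5 ± 3.59 in DOXpos libraries (SD, n = 3; exact permutation p = 0.10). MUC1 was the largest part of this total, which therefore mainly restates the MUC1 fall.

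**Figure D3:**
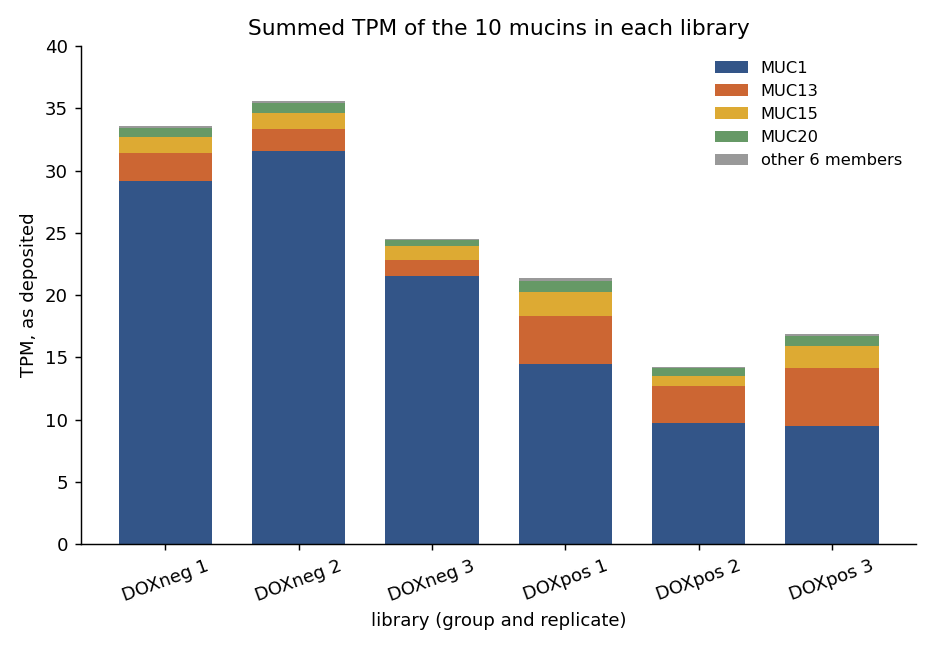
Deposited TPM of the 10 mucins stacked for each library, with MUC1 in blue, MUC13 in orange, MUC15 in yellow, MUC20 in green and the other 6 in grey. The MUC1 segment is shorter in every DOXpos library, from 21.5 TPM or more to 14.5 TPM or less, while the MUC13 segment grows from at most 2.31 to at least 2.95 TPM.

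Genes beside MUC1 on the chromosome did not pass the test. TRIM46, KRTCAP2 and THBS3 had log2 differences of -0.09, 0.15 and -0.24 (edgeR adjusted p = 0.69, 0.28 and 0.21). KRTCAP2 was higher and THBS3 lower without overlap between groups, as were 14.8% and 13.3% of all tested genes.

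Other genes of the mucin family and mucin-like sialomucins were read next to the members. Of 17 listed, 10 were tested and 2 passed, both higher, with a median log2 difference of -0.05. Over all tested genes 4.87% passed, 2.91% as higher. HEG1, a mucin-like membrane protein of endothelial and mesothelial cells, was at 26.9, 25.9 and 21.7 CPM in DOXneg and 30.2, 33.9 and 40.5 CPM in DOXpos libraries, a log2 difference of 0.49 (edgeR adjusted p = 0.037). PARM1, a mucin-like membrane protein gene of prostate, rose by 0.48 (adjusted p = 0.033). MUC3A was at 25.0, 24.3 and 19.2 CPM and at 16.3, 17.0 and 19.6 CPM, which overlapped, and did not pass (log2 difference -0.37, adjusted p = 0.081). It lay outside the summed TPM of the 10 mucins. In TPM, MUC3A was at 1.21, 1.25 and 0.762 in DOXneg and 0.947, 0.653 and 0.915 in DOXpos libraries. MUC6, MUC7, MUC17, MUC21 and MUC22 were not tested, and none of them exceeded 0.163 CPM in a library.

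The enzymes that build the sugar chains of mucins changed in a few places. None of the 14 tested GalNAc transferases, which attach the first sugar, passed the edgeR test, and 6 more were too low to be tested. The median of these 14 was 0.17, and GALNT5 had the highest value (0.79, adjusted p = 0.084). Of 12 tested enzymes that extend or cap the chains, 2 passed, both higher, beside 4.87% of all tested genes (2.91% higher). ST6GALNAC2, a sialyltransferase of the core chain, was at 3.90, 3.70 and 3.42 CPM in DOXneg and 5.34, 6.58 and 6.75 CPM in DOXpos libraries (log2 difference 0.76, adjusted p = 0.010). GCNT1, which makes the branched core 2, rose by 0.54 (adjusted p = 0.014). GCNT3, the mucin-type branching enzyme, and B3GNT3 were higher without overlap, as were 14.8% of all tested genes. Their log2 differences were 0.83 and 1.65, and neither passed (adjusted p = 0.074 and 0.070). B3GNT3 rested on few counts, with 2, 9 and 6 in DOXneg and 17, 16 and 31 in DOXpos libraries. FUT2 and ST6GALNAC6 were lower without overlap, as were 13.3% of all tested genes. They were at -0.36 and -0.15 and did not pass either (adjusted p = 0.14 and 0.31).

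Genes of mucus-secreting cells were mostly silent. Of 18 listed, 6 were tested and 0 passed, beside 4.87% of all tested genes. TFF1, TFF2 and CLCA1 had 0 counts in every library. TFF3, a peptide secreted along with mucus, was at 31.3, 40.2 and 39.6 CPM in DOXneg and 32.7, 31.7 and 17.2 CPM in DOXpos libraries (log2 difference -0.45, edgeR adjusted p = 0.36). SPDEF, a goblet cell transcription factor, did not exceed 0.168 CPM. Of 11 tested genes for proteases linked to the cutting of membrane mucins, their regulators and γ-secretase subunits, 0 passed, with a median of 0.0018. ADAM17, a sheddase of MUC1, had a log2 difference of 0.07 (adjusted p = 0.66).

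Among 32 tested genes whose products bind MUC1 or link membrane mucins to the cytoskeleton, 3 passed as higher and 1 as lower, with a median of 0.03. The shares over all tested genes were 2.91% higher and 1.96% lower. LGALS3, encoding galectin-3, which binds MUC1 sugars, was at 9.36, 7.55 and 8.04 CPM in DOXneg and 13.1, 15.3 and 20.6 CPM in DOXpos libraries, a rise of 0.97 on the log2 scale (edgeR adjusted p = 0.0078). The kinase gene LYN rose by 0.42 (adjusted p = 0.017) and ICAM1, a ligand of the MUC1 extracellular part, by 0.59 (adjusted p = 0.029). CTNNB1, encoding β-catenin, fell by 0.28 (adjusted p = 0.044), a call that was lost in 11 of 19 alternatives, among them no scaling factors (adjusted p = 0.053) and all leave-one-out fits except that without DOXpos replicate 2. Of the receptor genes, ERBB3 (0.31, adjusted p = 0.063) was higher without overlap, as were 14.8% of all tested genes. ERBB4 (-0.49, adjusted p = 0.068) overlapped, and neither passed. For EGFR, ERBB2 and MET, the log2 differences were 0.20, -0.11 and -0.18 (adjusted p = 0.14, 0.53 and 0.30).

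Of 22 tested transcription factors known at mucin promoters, 2 passed as higher and 1 as lower, with a median of 0.06. Over all tested genes the shares were 2.91% and 1.96%. FOS, a subunit of AP-1, fell from 93.3, 122 and 85.4 CPM to 48.0, 56.1 and 48.0 CPM, a difference of -0.99 (edgeR adjusted p = 0.0024). EHF, an epithelial ETS factor, rose by 0.89 (adjusted p = 0.027), and EPAS1, which encodes HIF-2α, rose by 0.39 (adjusted p = 0.029). NFKB1 (0.31, adjusted p = 0.056), JUN, a further AP-1 subunit (0.27, adjusted p = 0.099), and STAT3 (0.19, adjusted p = 0.12) were higher without overlap and did not pass. Such a lack of overlap, with higher values, was seen in 14.8% of all tested genes. SP1 had a difference of 0.02 (adjusted p = 0.90).

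**Figure D4:**
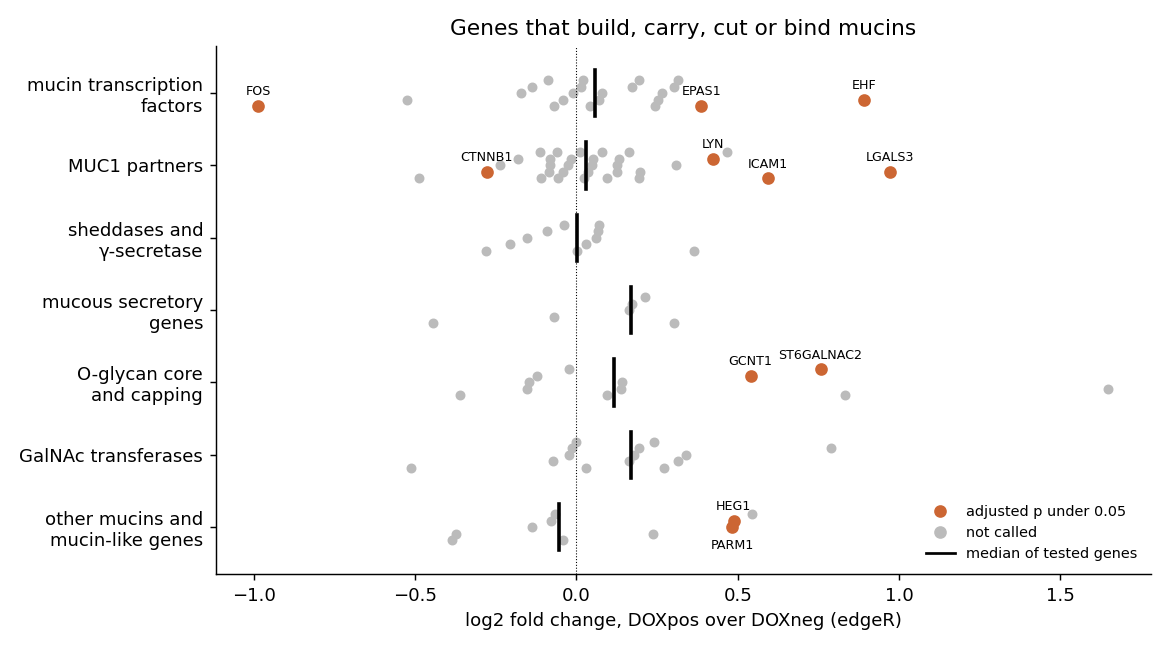
Log2 fold change (DOXpos over DOXneg, edgeR) of each tested gene in 7 lists around the mucins, with genes at an adjusted p under 0.05 in orange and named, the others in grey and list medians as black lines. The list medians lie between -0.05 and 0.17, and 11 genes are named.

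The number of list genes passing moved with the library left out, as did the share of all tested genes passing. In place of 11 genes, 2 passed without DOXneg replicate 2, 1 passed without DOXneg replicate 3, and 6 passed without DOXpos replicate 3. Over all tested genes, 4.87% passed with all 6 libraries, and 0.737%, 0.337% and 2.17% in these 3 fits, in that order. The counts were 11 without DOXneg replicate 1, 16 without DOXpos replicate 1 and 10 without DOXpos replicate 2. The shares over all tested genes there were 3.68%, 6.02% and 4.8%. These counts include list genes outside the 11. CTNNB1 lost its call without DOXneg replicate 1 (edgeR adjusted p = 0.078) or DOXpos replicate 1 (0.068). HEG1 (0.074), PARM1 (0.086) and ICAM1 (0.064) lost theirs without DOXpos replicate 2. The log2 estimates of the 11 genes kept their sign in each of these fits, for example 0.77 to 1.11 for LGALS3 and -1.09 to -0.82 for FOS.

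Some markers of other cell types moved in the same libraries as MUC13. For scale, 2.91% of all tested genes passed as higher and 1.96% as lower. Of 9 fibroblast markers 3 were tested, and COL1A1 and LUM were higher with DOX, whereas COL1A2 had a log2 difference of -0.71 and did not pass (edgeR adjusted p = 0.20). Of 6 leukocyte markers 2 were tested and CD68 was higher, and of 4 endothelial markers 3 were tested and CDH5 and VWF were higher, whereas KDR had a log2 difference of -0.74 and did not pass (adjusted p = 0.44). The summed fibroblast markers were at 25.2 to 30.7 CPM in DOXneg and 23.5 to 27.9 CPM in DOXpos libraries. The leukocyte sums were 2.52 to 2.91 and 3.44 to 3.87 CPM, and the endothelial sums 4.19 to 5.43 and 7.17 to 8.69 CPM. COL3A1, THY1 and CD3E had 0 counts in every library. The luminal prostate marker ACPP also rose, by 0.54 on the log2 scale. These markers all lost their call without DOXneg replicate 2 or DOXneg replicate 3. The part of these genes in the mucin results was not tested.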

How the data were processed

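RNA of triplicate cultures was made into stranded mRNA libraries per the labels, and STAR, DESeq2 and GRCh38 (hg38) are named in the submitters' processing notes without versions. The deposited files hold raw counts for 28008 gene symbols and, for 25673 of these, TPM made by the authors, that is, counts divided by a gene length and scaled within each library. The length and the strand setting of the counting were not given in the sources used here. Groups were taken from sample titles, because the genotype and treatment fields of the record hold the same entries in all 6 samples and do not name DOX or the hairpin, and 0 columns were left without a sample. RN7SK, a mostly non-polyadenylated RNA, held 5.83% to 7.79% of counts.

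Counts were filtered with filterByExpr, scaled with TMM and tested with edgeR 4.0.16 in R 4.3.3 (glmQLFit with robust estimation, glmQLFTest). All 17026 genes entered the Benjamini-Hochberg adjustment, and a gene passed at an adjusted p under 0.05. CPM use TMM-scaled totals. Within-group library pairs differed beyond counting noise, with a chi-square per degree of freedom of 14.8 to 90.0. TPM shares were compared by exact permutation over libraries. Lengths came from GENCODE 29, and positions and promoters from RefSeq (GRCh38.p14). Code was tested on simulated data. The genes and lists were chosen with earlier results of these data known, and lists were described by counts and medians. Named from each list were the called genes with the largest differences, and others picked after their values were seen. Some genes of the lists are not reported here.

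Alternatives used DESeq2 1.42.0, limma 3.58.1 (voom, and log2 TPM with pseudocounts of 1 or 0.1), other scalings and filters, a replicate block and leaving out each library. Protein-coding genes only, exon length and the list counts under each alternative were added after the data were seen.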

Additional observations from a re-analysis of the deposited data

How the results depend on the processing

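MUC1 was lower with DOX under all 19 alternatives, between -1.37 and -1.22 on the log2 scale, and passed in all but limma-trend on unfiltered log2(TPM + 1), where it was at -1.22 with an adjusted p of 0.11. In that fit 11 genes passed (1337 at an unadjusted p under 0.05), and 0 of the mucins and 0 of the 11 list genes did. There MUC13 was at 0.79 (adjusted p = 0.19) and MUC4 at -0.02 (adjusted p = 1.00), where a pseudocount of 1 exceeds MUC4's TPM. The number of genes passing was 1355 with DESeq2. It was 31 and 35 when limma-trend was run on TPM with pseudocounts of 1 and 0.1 over genes with a mean TPM of at least 1. In these fits 1 and 2 of the list genes passed. All limma-trend fits used the deposited TPM without further scaling between libraries. CTNNB1, for example, was at 487 and 473 CPM but at 85.4 and 55.1 TPM in DOXpos replicates 1 and 2. The part of this scale in the lower numbers was not tested. With 1 library left out, the number of genes passing was between 58 and 1035, with 1 to 3 mucins and 1 to 16 list genes. The lowest values followed the loss of DOXneg replicate 3 (58 genes, of which MUC1 was the mucin), DOXneg replicate 2 (127 genes, 2 mucins) and DOXpos replicate 3 (375 genes, 2 mucins); the cause was not tested. MUC5AC changed sign without DOXneg replicate 3 (-0.016; up to 0.15 without another library). The MUC1 share of mucin TPM differed by -23.6 percentage points and by -30.9 per kb of GENCODE exon, and by -25.7 to -19.8 with 1 library left out.

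With a replicate block, 998 genes passed against 829 without it (750 shared), MUC1 was at -1.32, and MUC13 was at 1.07 and no longer passed (adjusted p = 0.058), nor did CTNNB1 (-0.28, adjusted p = 0.060). The share and the summed TPM gave the same differences when paired, -23.6 points and 2.43 TPM, with an exact p of 0.25, the smallest that 3 pairs allow. The titles give replicate numbers only, and no pairing by number was seen in the libraries. With 3 libraries a group, this cannot settle whether the cultures were paired. The deviations of same-numbered libraries correlated at -0.54, 0.019 and -0.10 over 14587 genes, and 0 of 6 libraries correlated best with its own number. Depth limits MUC2, MUC5B, MUC12 and MUC16, whose counts were too few to resolve a difference.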

Other observations

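The 5 genes whose levels followed MUC1 most closely over the 6 libraries were KCNN3, KCNK9, TENM4, ADGRB1 and NEU3, among 14586 tested genes that averaged 50 counts or more. Pearson's r with MUC1 was 0.993 to 0.999 (n = 6). The 2 groups separate in MUC1, and r over such points is a description. Genes picked in this way are picked for differing between the groups. Their edgeR values from the same libraries are therefore description too and no separate evidence. ADGRB1, an adhesion receptor gene of the nervous system, was at 62.0, 69.6 and 62.3 CPM in DOXneg and 32.7, 35.8 and 27.9 CPM in DOXpos libraries, a log2 difference of -1.01 (edgeR adjusted p = 0.0011). KCNK9, a potassium channel gene, was at 22.7, 22.8 and 22.4 CPM and at 16.1, 15.8 and 14.6 CPM, and fell by 0.55 (adjusted p = 0.0061). KCNN3, a further potassium channel gene, fell by 0.59 (adjusted p = 0.023) and lies 316 kb from MUC1 on chromosome 1. NEU3, which encodes a sialidase of the plasma membrane, fell by 0.33 (adjusted p = 0.045), and TENM4 by 0.41 (adjusted p = 0.019).

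MSN, which encodes moesin, an ERM protein that links membrane proteins to actin, had 0 counts in 5 libraries and 1.13 CPM in DOXneg replicate 3. Its relatives EZR and RDX were at 555 to 659 CPM and 140 to 185 CPM over the 6 libraries.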
